A study of Mus musculus with 23 samples.

Results

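Dppa2, Dppa3, Dppa4, Dppa5a and Utf1 are genes that mouse pluripotent cells and early germ cells transcribe and most adult tissues do not. They were followed here by all array probes that carry their symbols, which are 8 of the 45281 probes on the array and 5 of the 11494 genes with a named probe. Dppa4 has 3 of these probes, Dppa5a has 2, and Dppa2, Dppa3 and Utf1 have 1 each. The series set lines without Blimp1, the transcriptional repressor that specifies primordial germ cells (PGCs), against heterozygous lines, to ask whether the loss of Blimp1 alters pluripotent cells and the reversion of epiblast stem cells (epiSCs) to cells that resemble embryonic stem cells (ESCs), called rESCs. It comprised 5 rESC lines, 5 epiSC lines, 6 ESC lines in 2i/LIF, the same 6 ESC lines in serum and 1 culture of fibroblasts from mouse fetuses (MEFs), cells that also served as feeders. The Blimp1-null lines were J2.3, BL2 and BL6 as rESCs, BL2 and BL6 as epiSCs, and JAG1, JAG2 and B12 as ESCs. The heterozygous lines were BL3 and BL7 as rESCs, BL3, BL4 and BL7 as epiSCs, and PAN1, PUM3 and CHE4 as ESCs, while the MEFs were wild type.

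Each line gave 1 array per state, so n counts lines. The deposited labels give every sample the background C57Bl6/CBA/129, whereas the methods name the MF1 strain as the source of MEFs and the study's text describes epiSC lines of both 129 and mixed background. EpiSCs came from postimplantation epiblast and grew on MEF feeders in N2B27 with activin A, bFGF and a serum replacement, and rESCs arose after epiSCs were moved to serum with LIF on feeders. 2i/LIF is N2B27 with the MEK inhibitor PD0325901, the GSK3 inhibitor CHIR99021 and LIF. Signals are mean bead intensities of a probe, and a probe counts as detected at a detection p under 0.01 against the negative controls of its array. Levels are given on a log2 scale after background correction and quantile normalization, and ± marks the SD over lines. Across the 23 arrays, 12197 to 14599 probes were detected and the median signal lay between 68.9 and 107. No probe carries the symbol Prdm1, the gene that encodes Blimp1, so the genotype labels were not checked against it here.

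Dppa2 and Dppa4 encode partner proteins that bind DNA through a SAP domain and sit at the promoters of developmental genes and of genes used at the cleavage stage. Dppa3, also called Stella or PGC7, shields methylated DNA in the early embryo from demethylation and marks PGCs. Dppa5a, also called Esg1, encodes a KH-domain protein that binds RNA, and Utf1 encodes a chromatin-bound protein of ESCs. In the mouse, several of them are silenced with the gain of DNA methylation as the epiblast leaves the naive state, which epiSCs represent at a later stage than ESCs. In RefSeq (GRCm38.p6), Dppa4 (chr16:48283735-48294292) and Dppa2 (chr16:48310274-48319513) lie 15981 bases apart, Dppa3 lies at chr6:122626424-122630271, Dppa5a at chr9:78367052-78368199 and Utf1 at chr7:139943856-139945112. RefSeq also lists the pseudogenes Dppa5b and Dppa5c on chromosome 9 and Dppa3-ps on chromosome X, and signal from such copies cannot be told apart from that of Dppa5a or Dppa3 without the probe sequences, which were not used here.

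CG pairs, in capitals in the sequence below, are the sites at which DNA methylation acts. Of the members, only Utf1 had a promoter window in the reference used, and this window is shown. It is the plus strand of chr7:139943606-139943905 (GRCm38.p6, RefSeq), 300 bases around the start of the gene, and the promoters of the other 4 genes were not analysed here.
Utf1 promoter: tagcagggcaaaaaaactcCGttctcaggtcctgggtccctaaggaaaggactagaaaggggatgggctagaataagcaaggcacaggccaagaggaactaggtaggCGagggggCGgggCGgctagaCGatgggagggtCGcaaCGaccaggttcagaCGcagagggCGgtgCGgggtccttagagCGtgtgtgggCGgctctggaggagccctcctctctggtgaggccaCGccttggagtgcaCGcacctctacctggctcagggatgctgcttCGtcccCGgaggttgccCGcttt
The window holds 17 CG pairs and is 62% G or C. Of 32851 RefSeq promoter windows of the same length, 31.4% hold at least as many CG pairs, and the median is 7. GGGCGG, the letters of a GC box, occurs 4 times when both strands are read and overlapping matches are counted, and 35.7% of all windows hold it. Each match contains a CG pair that is counted above. DNA methylation was not measured in these samples, so the window describes the gene and not its state.

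Each of the 8 probes had its lowest mean level in epiSCs among the 4 pluripotent states. None of the 8 was detected on the MEF array, where the signals of Dppa2, Dppa3, Dppa4, Dppa5a and Utf1 lay between 73.3 and 87.9. The genes differed in which state was highest. Dppa4 (probe ILMN_2593476, the brightest of its 3) had a log2 level of 11.61 ± 0.11 in rESCs (n = 5), 11.12 ± 0.33 in ESCs in serum (n = 6), 10.54 ± 0.21 in ESCs in 2i/LIF (n = 6) and 6.38 ± 2.54 in epiSCs (n = 5), with each step larger than the SD of both neighbours. Utf1 had the same order at 9.67 ± 0.23, 8.91 ± 0.66, 7.12 ± 0.39 and 6.89 ± 1.21, but its last step, 0.23 between 2i/LIF and epiSCs, lay within the SD. Dppa3 was highest in 2i/LIF at 8.60 ± 0.40, followed by 8.37 ± 0.79 in serum and 7.81 ± 0.40 in rESCs, steps that lay within the SD, and by 5.27 ± 1.27 in epiSCs. Dppa2 was also highest in 2i/LIF at 6.59 ± 0.60, with 5.92 ± 1.12 in rESCs, 5.36 ± 0.70 in serum and 4.40 ± 0.15 in epiSCs, of which the last step, 0.96, was larger than the SD. Dppa5a (probe ILMN_3018711) reached 14.44 ± 0.07 in rESCs, 14.44 ± 0.11 in serum and 14.33 ± 0.06 in 2i/LIF, and had 8.71 ± 3.89 in epiSCs.

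**Figure D1:**
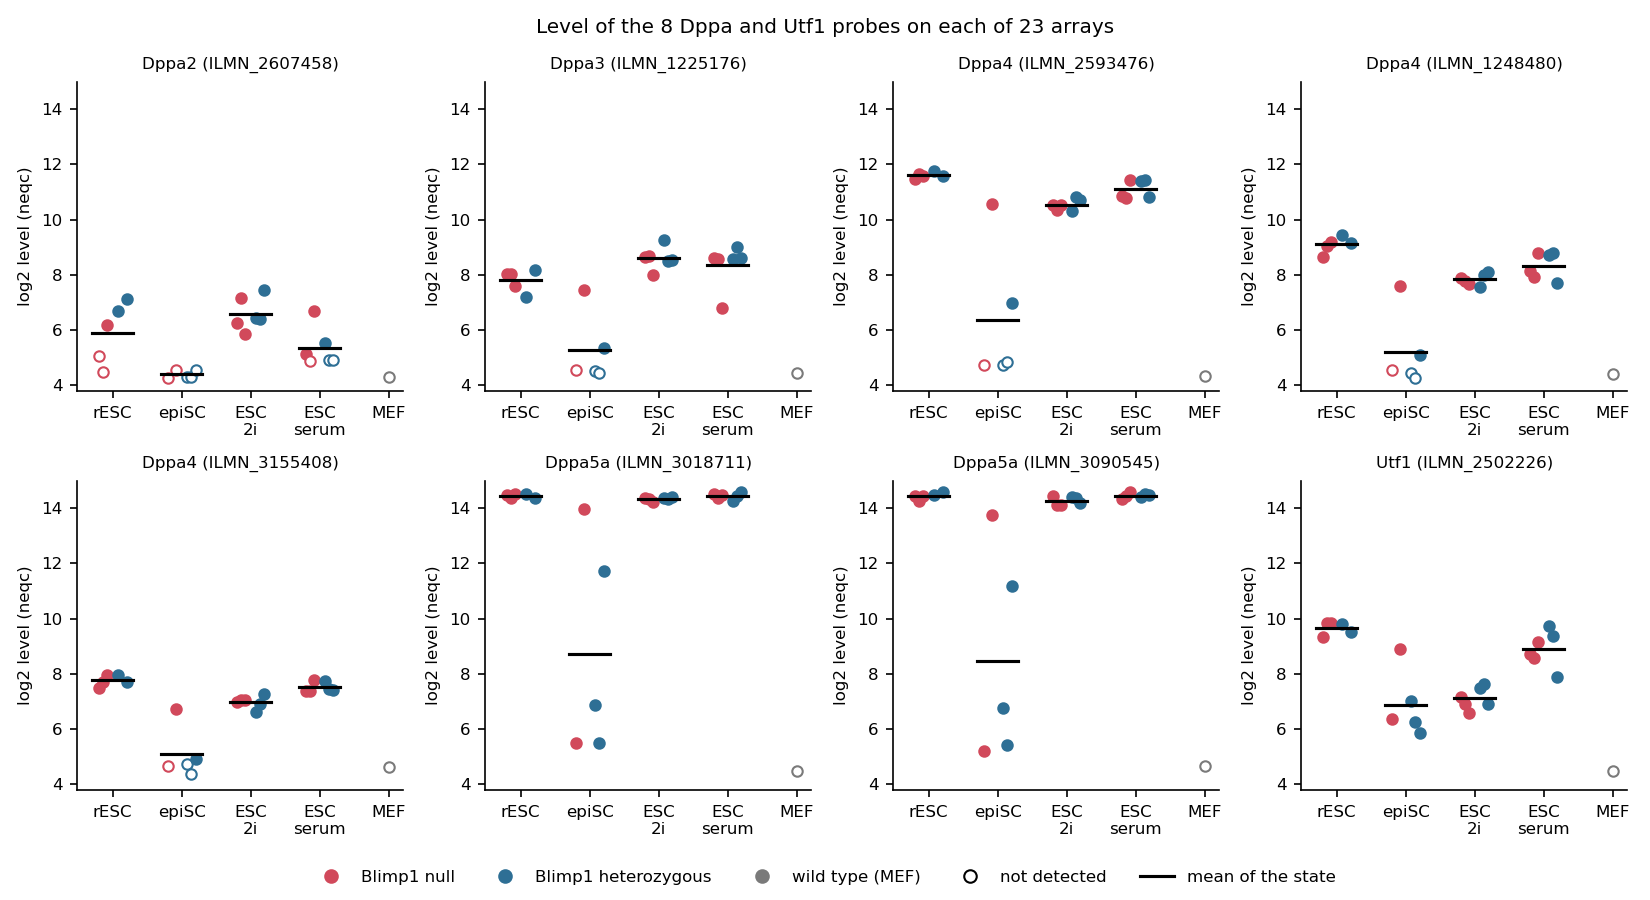
Log2 level of each of the 8 probes on the 23 arrays (vertical axis, log2 units) by state (horizontal axis), with null lines in red, heterozygous lines in blue, MEFs in grey, open symbols where the probe was not detected, and a bar at the mean of each state. EpiSCs have the lowest mean in every panel, and the BL6 epiSCs stand above the other epiSC lines for Dppa3, Dppa4, Dppa5a and Utf1 (Dppa4 10.58, Utf1 8.92).

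The precision differed by gene. The 2 Dppa5a probes ranked between 1 and 25 of 45281 on each of the 17 rESC and ESC arrays, at 73.6 to 100% of the highest signal of the array. Quantile normalization gives the top ranks of all arrays the same values, so differences of Dppa5a among rESCs and ESCs are compressed by construction. Dppa2 lay at the other end, with signals of 70.6 to 281 in the pluripotent arrays and detection in 3 of 5 rESC lines, 0 of 5 epiSC lines, 6 of 6 ESC lines in 2i/LIF and 3 of 6 in serum. In bulk samples such as these, fewer cells that transcribe a gene and less RNA per cell cannot be told apart.

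EpiSC lines were far from uniform in these genes. Dppa5a (ILMN_3018711) gave signals of 193 in BL3, 114 in BL4, 3226 in BL7, 109.6 in BL2 and 15524 in BL6, and the second probe (ILMN_3090545) gave 185, 112, 2329.6, 101 and 12733 in the same order. BL6 thus approached the rESC lines, BL7 was intermediate, and BL3, BL4 and BL2 were near background though detected. Dppa4 (ILMN_2593476) was not detected in the BL3, BL4 and BL2 epiSCs, at 104, 101 and 89.3, and gave 209 in BL7 and 1374 in BL6. Its other probes ILMN_1248480 and ILMN_3155408 were likewise detected in BL7 (104 and 97.8) and BL6 (241 and 162) and in no other epiSC line. Dppa3 followed the same split, with 112 in BL7 and 222 in BL6 detected and 97.2 in BL3, 91.7 in BL4 and 84.7 in BL2 not detected. Utf1 separated BL6 alone, with 487 in BL6 against 207 in BL3, 139 in BL4, 133 in BL7 and 146 in BL2, so BL7 was not raised for this gene. Dppa2 was at 70.6 to 87.7 and undetected in all 5 lines.

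Set against other probes, this spread was wide. Among the 13205 probes detected on at least 3 epiSC arrays the median SD over lines was 0.24. The SDs of 3.89 and 3.82 of the Dppa5a probes lay above those of 99.99% and 99.985% of these probes, the SD of 2.54 of Dppa4 (ILMN_2593476) above 99.98%, that of 1.27 of Dppa3 above 99.7% and that of 1.21 of Utf1 above 99.6%. The Dppa3 and Dppa4 probes, detected on 2 epiSC arrays, were not themselves among the 13205. Without the BL6 epiSCs, a setting added after the data were seen, the SDs were 2.95 for Dppa5a (ILMN_3018711), 1.11 for Dppa4, 0.43 for Dppa3 and 0.48 for Utf1, above those of 99.992%, 99.7%, 88.6% and 91.4% of 12848 probes. In rESCs 4.90% of 12939 probes had a lower SD than Dppa4 (ILMN_2593476), while the SD of 1.12 of Dppa2 exceeded that of 99.0%.

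The epiSC label was checked against marker genes. Of 11 genes of the postimplantation epiblast that were measured, 9 to 10 were detected in each epiSC line, against 4 to 5 in rESCs, 3 to 4 in each ESC culture and 1 in MEFs. Their summed signal was 3252 to 4013 in epiSCs against 2232 to 3075 in rESCs, 2082 to 2534 in 2i/LIF and 1165.5 to 3053.5 in serum. Of 14 naive ESC genes measured, BL6 epiSCs had 14 detected and BL7 epiSCs 11, against 6 in BL3 and 5 each in BL4 and BL2, and their summed signal was 7314 in BL6 and 3530 in BL7 against 2216 to 2264 in the others. Esrrb, a nuclear receptor gene of naive ESCs, reached 10.73 in BL6, 7.52 in BL7 and 6.52 in BL3 on the log2 scale and was not detected in BL4 and BL2. The summed signal of 21 fibroblast markers was 4912 to 6146 in epiSCs, lowest in BL6, against 81633 in MEFs, and 13 to 17 of the 21 were detected in epiSCs. The part of naive cells in the BL6 and BL7 values was not tested, and the differences of the members between epiSCs and other states are also given without BL6.

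Dppa3, Dppa4, Dppa5a and Utf1 rose in rESCs relative to epiSCs when the lines were compared as groups. Dppa4 (ILMN_2593476) had signals of 4166 in BL3, 4445 in BL7, 2373 in J2.3, 4224 in BL2 and 3661 in BL6 rESCs, against the 89.3 to 1374 of epiSCs, with no overlap. Utf1 had 1176 in BL3, 1117 in BL7, 588 in J2.3, 1262 in BL2 and 1179 in BL6 rESCs, also above every epiSC line. Dppa5a (ILMN_3018711) had 20438, 25488, 22365, 23084 and 24711 in the BL3, BL7, J2.3, BL2 and BL6 rESCs, against 15524 in the highest epiSC line. All 3 genes were therefore higher in each rESC line than in any epiSC line (6 of 7 probes tested, where 11.4% of all probes tested were). Dppa3 had 252 in BL3, 495 in BL7, 271 in J2.3, 404 in BL2 and 298 in BL6 rESCs, and after normalization the BL3 rESCs at 7.22 lay below the BL6 epiSCs at 7.45, so the groups overlapped. Dppa2 had 194.7 in BL3, 281 in BL7 and 145 in BL6 rESCs and was not detected in J2.3 (90.0) and BL2 (81.1), and BL2 lay within the epiSC range.

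limma called 7 of the 7 member probes tested as higher in rESCs at an adjusted p under 0.01, where 10.6% of all 13418 probes tested were called higher and 23.2% either way. The Dppa3 and Dppa4 probes passed the filter on detection through the rESC arrays, so that count is a description. The log2 difference of Dppa4 was 5.20 for ILMN_2593476 (SE 0.95, adjusted p = 0.00137), 3.93 for ILMN_1248480 (SE 0.54, adjusted p = 0.000247) and 2.72 for ILMN_3155408 (SE 0.38, adjusted p = 0.000252), and the 3 probes gave the same direction with unequal size. For Utf1 it was 2.75 (SE 0.46, adjusted p = 0.000821) and for Dppa3 2.59 (SE 0.51, adjusted p = 0.00229). The Dppa5a probes differed by 5.66 (95% interval 2.53 to 8.79, adjusted p = 0.00908) and 5.88 (SE 1.40, adjusted p = 0.00659), calls that lay close to the threshold and were lost on leaving out any 1 array other than the BL7 or BL6 epiSCs (adjusted p up to 0.0263 and 0.0197). Dppa2 was not tested because it was detected on too few arrays. Its rESC mean was at least 1.79-fold that of epiSCs, a bound set by the lowest signal among detected probes.

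Without the BL6 epiSCs the log2 differences were 6.27 for Dppa4 (ILMN_2593476), 6.95 for Dppa5a (ILMN_3018711), 3.17 for Dppa3 and 3.26 for Utf1. BL6 had the highest epiSC values of these genes, so leaving it out enlarges the differences by construction. Their adjusted p-values are therefore not given. The median over the 7 probes was 3.93 in the fit with all lines, against 0.001 over all probes tested.

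**Figure D2:**
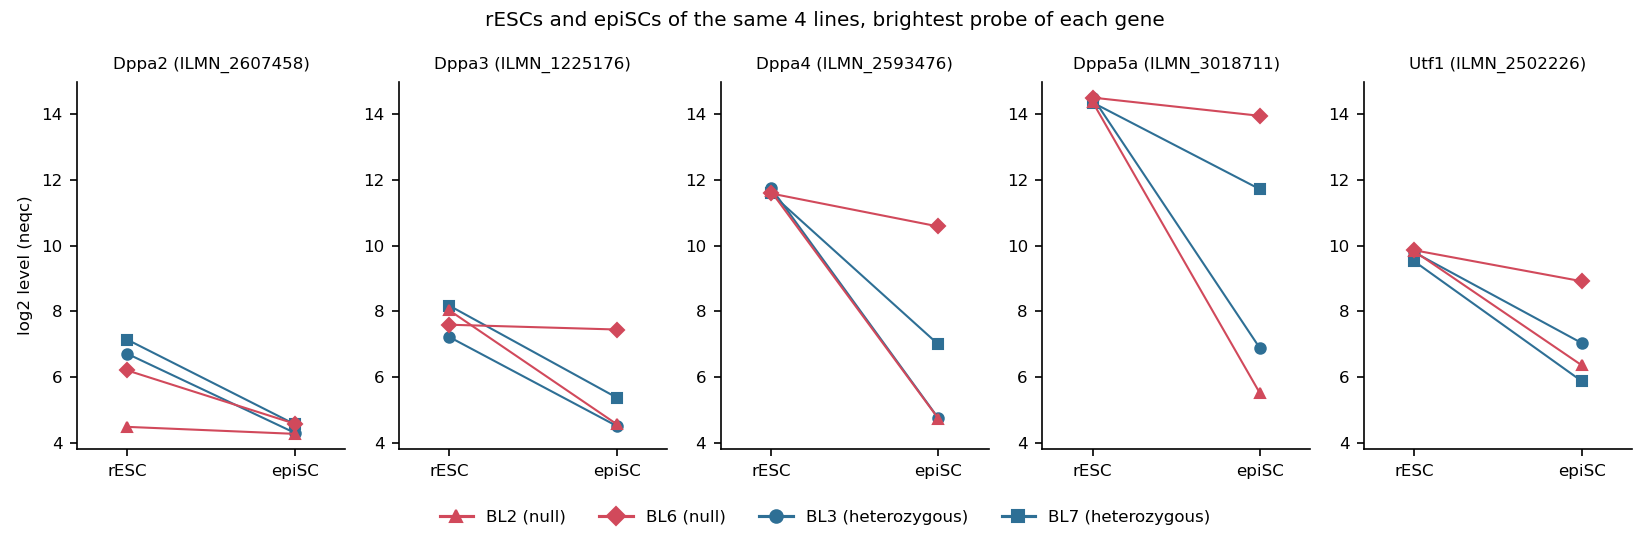
Log2 level of the brightest probe of each gene in rESCs (left) and epiSCs (right) of the 4 lines measured in both states, with 1 line per cell line, null in red and heterozygous in blue. Symbols are filled whether or not the probe was detected. For Dppa4 the rESCs of BL3 and BL2 lie at least 6.69 and 6.61 above their epiSCs, in which it was not detected, those of BL7 by 4.60 and those of BL6 by 1.01.

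Within the 4 lines that were measured in both states, each line was read against itself. Where a probe was not detected in the epiSCs, the difference is a lower bound set by the dimmest detected signal of that array. Dppa4 (ILMN_2593476) was higher in rESCs than in epiSCs of the same line by at least 6.69 in BL3, by 4.60 in BL7, by at least 6.61 in BL2 and by 1.01 in BL6 on the log2 scale. Dppa3 was higher by at least 2.15 in BL3, by 2.80 in BL7, by at least 2.99 in BL2 and by 0.15 in BL6. For both genes BL6 differed least, and its epiSCs had the highest level of the 4. The Dppa5a differences (ILMN_3018711) were 7.64 in BL3, 2.64 in BL7, 8.87 in BL2 and 0.56 in BL6, with the rESC values between ranks 2 and 7 of their arrays and so compressed at the top of the scale. Utf1, detected in all 8 cultures, differed by 2.76 in BL3, 3.65 in BL7, 3.47 in BL2 and 0.94 in BL6. Dppa2 was higher in rESCs by at least 1.63 in BL3, at least 2.21 in BL7 and at least 1.00 in BL6, and BL2 was undetected in both states and has no fold. With cell line as a block over these 4 lines, limma called 4 of 7 probes higher, where 8.2% of 13616 probes were called higher (8.89% without the block), those of Dppa4 (4.87 for ILMN_2593476, adjusted p = 0.00841) and Utf1 (2.68, adjusted p = 0.00409). Dppa3 (2.36, adjusted p = 0.0127) and Dppa5a (4.81, adjusted p = 0.0273, and 5.08, adjusted p = 0.0208) passed neither with the block nor, on the same 8 arrays, without it (adjusted p = 0.014, 0.0386 and 0.0299).

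EpiSCs were also set against ESCs in serum, the state that rESCs share their medium with. The serum lines had signals of 1327 to 3455 for Dppa4 (ILMN_2593476, median 2275), 18846 to 25651 for Dppa5a (ILMN_3018711, median 23123), 171 to 557 for Dppa3 (median 423) and 212 to 1143 for Utf1 (median 557), against the epiSC values above. After normalization the ranges of Dppa4 and Dppa5a were separate, as were 13.7% of all probes tested with epiSCs lower, while for Utf1 the BL6 epiSCs (8.92 on the log2 scale) lay above the CHE4 serum ESCs (7.88), and for Dppa3 above the B12 serum ESCs (6.79). limma called 7 of 7 tested probes lower in epiSCs, where 18.3% of 13856 probes were called lower and 37.1% either way. Dppa3 and Dppa4 passed the filter on detection through the serum arrays, so that count is a description. Dppa4 fell by 4.69 (ILMN_2593476, SE 0.86, adjusted p = 0.00062) and Dppa5a by 5.76 (ILMN_3018711, SE 1.31, adjusted p = 0.00279). Dppa3 fell by 3.04 (SE 0.52, adjusted p = 0.000388) and Utf1 by 1.99 (SE 0.48, adjusted p = 0.0038). The Utf1 call was lost without the BL4, BL7 or BL2 epiSCs (adjusted p = 0.0126, 0.012 and 0.0116). Without the BL6 epiSCs, the highest epiSC line for these genes, Utf1 fell by 2.49. Also without BL6, the differences were -5.74 for Dppa4 (ILMN_2593476), -7.08 for Dppa5a (ILMN_3018711) and -3.59 for Dppa3, values that are larger by construction. Of 16 fibroblast markers tested, 11 were called lower and 2 higher in epiSCs than in serum, with summed signals of 4912 to 6146 in epiSCs and 8086 to 11122 in serum, and their part in these values was not tested. Dppa2 was detected in 0 of 5 epiSC lines and 3 of 6 serum lines and was not tested. Its serum mean, which includes the undetected serum lines, was at least 1.21-fold that of epiSCs. The ranges did not overlap after normalization, but the signals did (75.8 to 164 in serum, 70.6 to 87.7 in epiSCs).

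rESCs and ESCs in serum gave no call for these genes. limma called 0 of 8 probes at an adjusted p under 0.01, where 0.193% of all 13495 probes were called, and 0 under 0.05, where 4.91% were. An unadjusted p under 0.05 was reached by 3 of the 8, and by 26.2% of all probes tested. Without the B12 serum array 3 of the 8 had an adjusted p under 0.05, which were Dppa3 (-0.88, adjusted p = 0.0129), Dppa4 ILMN_2593476 (0.56, adjusted p = 0.0387) and Dppa4 ILMN_1248480 (0.86, adjusted p = 0.0296). With all arrays Dppa4 (ILMN_2593476) was higher in all 5 rESC lines than in any serum line after normalization, as were 2.68% of all probes tested, by 0.50 on the log2 scale (SE 0.16, adjusted p = 0.0807), and the other Dppa4 probes differed by 0.77 (adjusted p = 0.0659) and 0.24 (adjusted p = 0.275). The difference of Utf1 was 0.76 (95% interval 0.16 to 1.36, adjusted p = 0.111). The intervals were -1.31 to 0.18 for Dppa3, -0.49 to 1.61 for Dppa2 and -0.22 to 0.23 for Dppa5a (ILMN_3018711), so a 2-fold difference lay within the interval for Dppa3, Dppa2 and Utf1 and outside it for Dppa5a, whose probes are near the top of the scale.

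2i/LIF changed these genes in different directions. Utf1 had 147 to 226 in 2i/LIF (median 199.7) against 212 to 1143 in serum (median 557), Dppa4 (ILMN_2593476) 1142 to 2023 (median 1547) against 1327 to 3455 (median 2275), and Dppa2 106 to 254 (median 138) against 75.8 to 164 (median 89.6). After normalization the Utf1 ranges were separate (10.8% of all probes tested were separate with 2i/LIF lower), those of Dppa4 overlapped narrowly for this probe (10.83 in PUM3 in 2i/LIF, 10.79 in JAG2 in serum), and those of Dppa2 overlapped through the B12 line. limma called 1 probe higher and 3 lower of 8 in 2i/LIF, where 15.7% of 13274 probes were called higher, 15.4% lower and 31.1% either way. Utf1 fell by 1.81 (SE 0.28, adjusted p = 0.000174). Dppa4 fell by 0.59 (ILMN_2593476, SE 0.16, adjusted p = 0.00765) and by 0.55 (ILMN_3155408, SE 0.12, adjusted p = 0.00287), and the third probe, ILMN_1248480, differed by -0.51 without passing (adjusted p = 0.052). Dppa2 rose by 1.22 (SE 0.33, adjusted p = 0.00749). Dppa3 differed by 0.24 (95% interval -0.45 to 0.92, adjusted p = 0.573), or by -0.08 without the B12 serum array (adjusted p = 0.738), and Dppa5a (ILMN_3018711) by -0.11 (95% interval -0.30 to 0.08, adjusted p = 0.336).

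The call of Dppa2 in 2i/LIF was the least stable of the 4. It was lost in 16 of 20 alternatives (adjusted p up to 0.0321), among them the fit with cell line as a block (adjusted p = 0.0191), and without the B12 serum array the rise was 1.48 (adjusted p = 0.000414). The first Dppa4 probe lost its call in 9 of 20 alternatives, while Utf1 kept its call in 20 of 20. Fibroblast markers moved with the medium, with a summed signal of 2703 to 3433 in 2i/LIF and 8086 to 11122 in serum and 12 of 14 tested called lower in 2i/LIF. None of the 8 member probes was detected in MEFs, and the part of the fibroblast share in these differences was not tested.

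**Figure D3:**
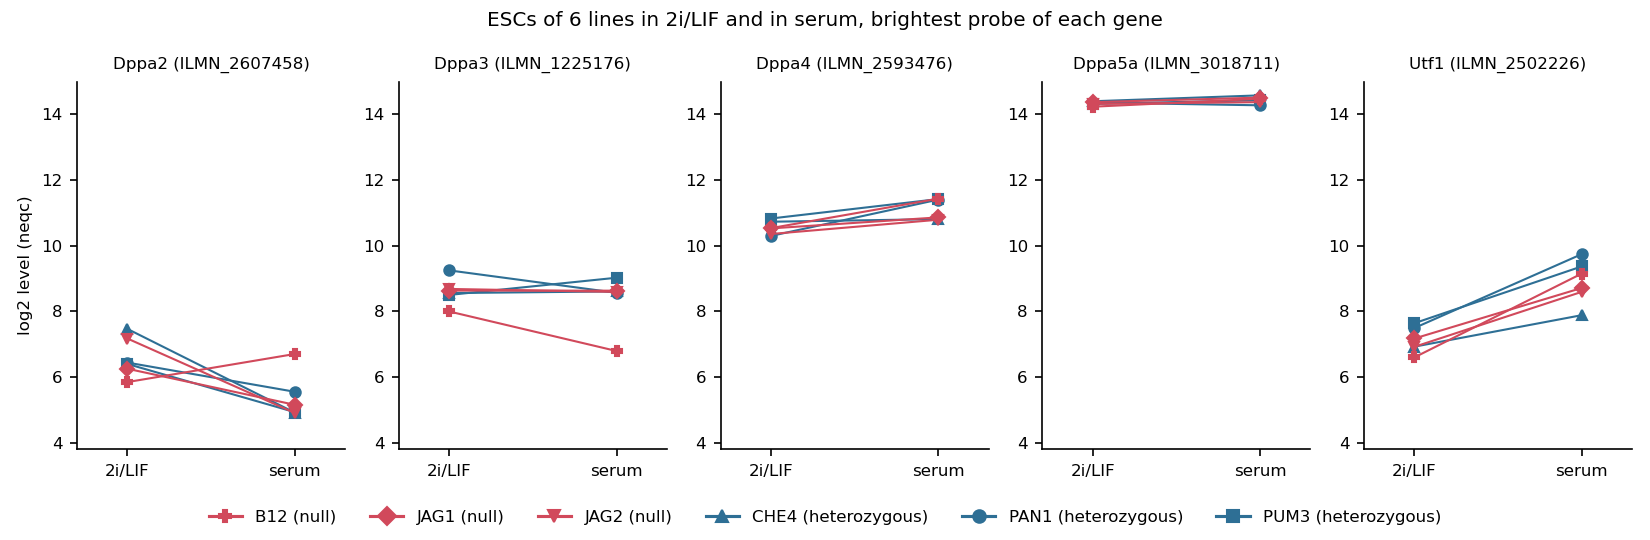
Log2 level of the brightest probe of each gene in 2i/LIF (left) and serum (right) for the 6 ESC lines, null in red and heterozygous in blue, with symbols filled whether or not the probe was detected. Utf1 is lower in 2i/LIF in 6 of 6 lines, by 0.96 (CHE4) to 2.55 (B12) log2 units, whereas Dppa2 is higher in 5 of 6 lines and lower in B12.

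The same 6 lines were grown in both media, which allowed each line to be read against itself. Utf1 was lower in 2i/LIF in 6 of 6 lines, by -2.25 in PAN1, -1.73 in PUM3, -0.96 in CHE4, -1.54 in JAG1, -1.67 in JAG2 and -2.55 in B12. Dppa4 (ILMN_2593476) was lower in 6 of 6, from -1.11 in PAN1 to -0.08 in CHE4, and its probe ILMN_1248480 was higher in CHE4 by 0.42. CHE4 had the lowest serum signal of both genes. Dppa2 was higher in PAN1 (0.89) and JAG1 (1.10), higher by at least 1.22 in PUM3, 2.31 in CHE4 and 2.03 in JAG2, in which serum cultures it was not detected, and lower in B12 (-0.86), whose serum culture had the highest Dppa2 level of the 6. Dppa3 moved by -0.52 in PUM3 and by 1.20 in B12, with the other 4 lines between. Dppa5a moved by -0.24 to 0.08 for ILMN_3018711 and by -0.47 to 0.10 for ILMN_3090545.

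Measured against 2i/LIF, epiSCs and rESCs differed in which members were called and in which direction. limma called 7 of 8 probes lower in epiSCs than in 2i/LIF, where 21.9% of 13946 probes were called lower and 43.9% either way. Dppa2, Dppa3 and Dppa4 passed the filter on detection through the 2i/LIF arrays, so that count is a description. Dppa4 fell by 4.13 (ILMN_2593476, adjusted p = 0.00104), with the BL6 epiSCs inside the 2i/LIF range, Dppa5a by 5.67 (ILMN_3018711, adjusted p = 0.00232) and Dppa3 by 3.28 (adjusted p = 3.87e-05). Without the BL6 epiSCs, the highest epiSC line for these probes, the differences were -5.19, -6.99 and -3.83, larger by construction. The ranges of Dppa2, Dppa3 and Dppa5a were separate, as were 17.6% of all probes tested with epiSCs lower. Of 12 fibroblast markers tested, 9 were called higher and 2 lower in epiSCs than in 2i/LIF, with summed signals of 4912 to 6146 in epiSCs and 2703 to 3433 in 2i/LIF, and their part in these values was not tested. Dppa2, undetected in epiSCs, was at least 2.81-fold lower there. Its call rests on epiSC values below detection, so its adjusted p is not given. Utf1 was the exception at -0.23 (95% interval -1.18 to 0.71, adjusted p = 0.672), and at -0.74 without the BL6 epiSCs, which were also the highest for Utf1. In rESCs against 2i/LIF, 4 of 8 probes were called higher, where 9.74% of 13516 probes were called higher and 18.7% either way. Utf1 was higher by 2.58 (SE 0.19, adjusted p = 1.7e-06) and Dppa4 by 1.05 (SE 0.12, adjusted p = 4.53e-05), 1.28 (adjusted p = 5.67e-05) and 0.79 (adjusted p = 0.000843), each with no overlap, as found for 9.61% of all probes tested with rESCs higher. Of 15 fibroblast markers tested, 11 were also called higher in rESCs than in 2i/LIF, and their part in these values was not tested. Dppa3 differed by -0.80 (adjusted p = 0.0149), Dppa2 by -0.70 (adjusted p = 0.257) and Dppa5a by 0.11 and 0.16. The comparisons share arrays, and these values are set side by side as each comparison's own.

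**Figure D4:**
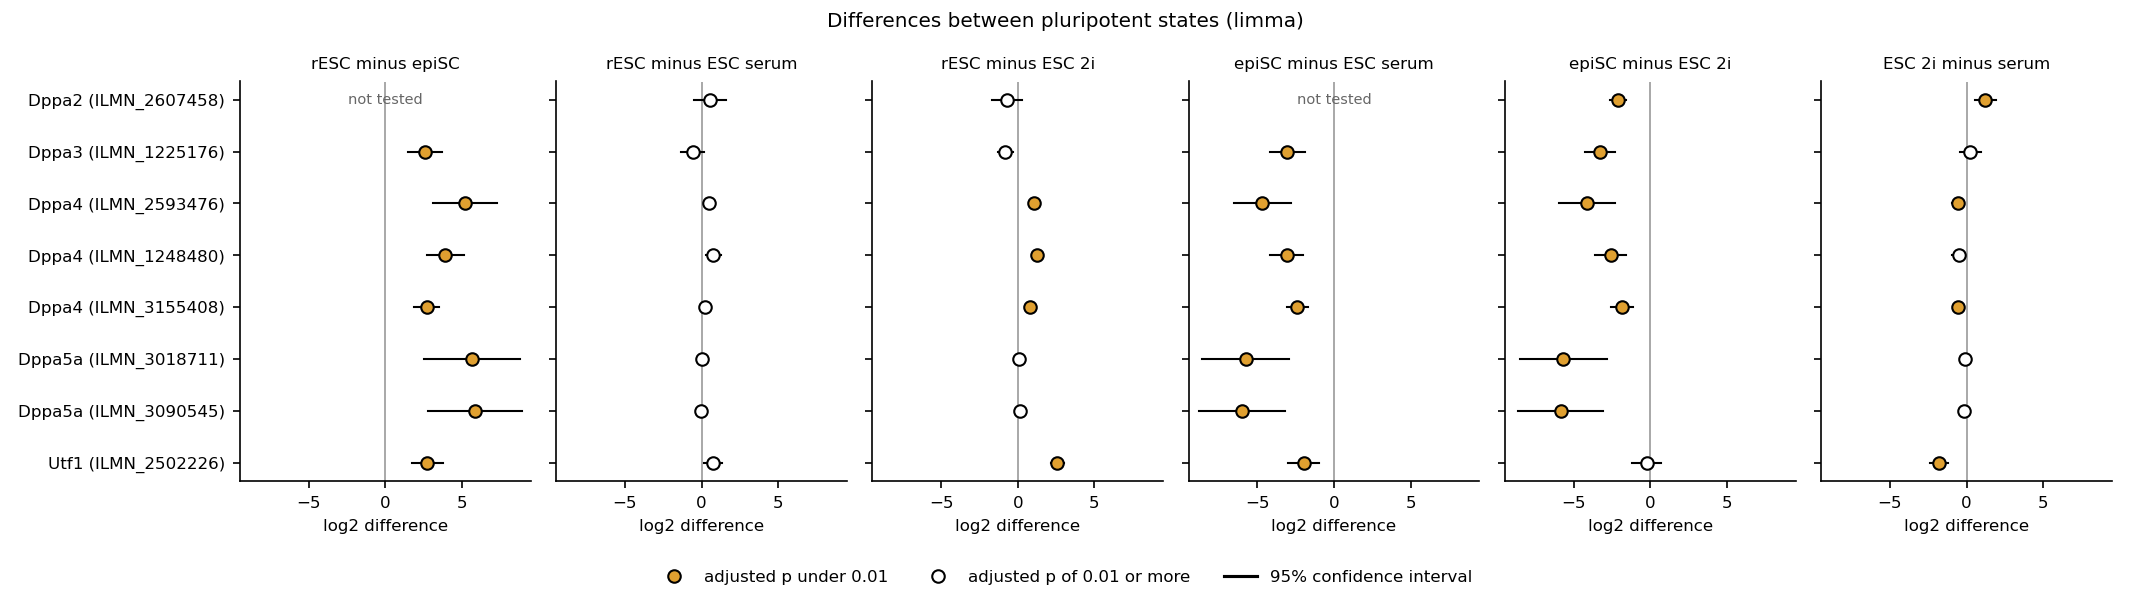
Log2 difference of each member probe (horizontal axis, log2 units, 95% interval) in the 6 comparisons between states, with filled symbols at an adjusted p under 0.01 in limma. Dppa4 and Dppa5a lie 4.69 and 5.76 below serum ESCs in epiSCs and at 0.50 and 0.00 in rESCs against serum ESCs, and Dppa2 is marked where it was not tested.

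Null and heterozygous lines did not differ by a call for these genes in any state. The percentage of all probes called was 0 in ESCs in serum, 0 in 2i/LIF, 0.404 in epiSCs, 0 in rESCs and 0 over all states, and limma called 0 of the member probes in each. In epiSCs 7 member probes were tested, without Dppa2, and in the other fits 8. At an unadjusted p under 0.05 there was 1 member probe of 8 in rESCs, where 4.82% of all probes were, and 0 in ESCs in serum, in 2i/LIF, in epiSCs and over all states, where 4.49%, 5.48%, 16.1% and 7.67% were. In rESCs, 2 of 8 member probes had no overlap with null lower, as did 9.17% of all probes, namely Dppa5a ILMN_3090545 (-0.15, adjusted p = 1 in limma) and Dppa2. The probe with the unadjusted p under 0.05 was Dppa2, at 5.06 in J2.3, 4.48 in BL2 and 6.20 in BL6 null rESCs against 6.70 in BL3 and 7.13 in BL7 heterozygous rESCs. Its difference was -1.78 (95% interval -3.05 to -0.50, adjusted p = 1 in limma), and it ran from -2.28 to -1.34 on leaving out 1 line at a time. In epiSCs the null minus heterozygous difference was 2.06 for Dppa4 (ILMN_2593476, 95% interval -1.39 to 5.51), 1.74 for Dppa5a (ILMN_3018711, -4.10 to 7.58), 1.20 for Dppa3 and 1.20 for Utf1, with adjusted p of 0.394 to 0.776 over the probes. Without the BL6 epiSCs these turned to -0.78, -2.45, -0.21 and -0.04. Without the BL2 epiSCs, the other null line, they were 4.88, 5.91, 2.58 and 2.43. Each of these fits leaves 1 null line, so no p-values are given. With 2 null lines of which 1 had the highest values of all epiSCs, the sign of these differences thus depended on which line was kept.

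In 2i/LIF the largest of these differences in size was that of Utf1, -0.46 (SE 0.23, adjusted p = 0.894), and in serum they ran from -0.73 for Dppa3 (95% interval -1.84 to 0.38) to 0.45 for Dppa2 (adjusted p = 0.91 to 0.997). Over all states, with cell line as a random block, the members lay between -0.35 and 0.45 (adjusted p = 0.807 to 0.98). The change between rESCs and epiSCs was tested for 7 member probes, without Dppa2, and that between 2i/LIF and serum for 8. By the interaction term of limma, neither differed between genotypes by a call for these probes (adjusted p of 0.998 and above). Of all probes tested, 0 of 13418 and 0 of 13274 were called. Lines of 1 genotype in 1 state numbered 2 or 3, which leaves intervals such as that of Dppa5a in epiSCs wider than 10 log2 units.

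**Figure D5:**
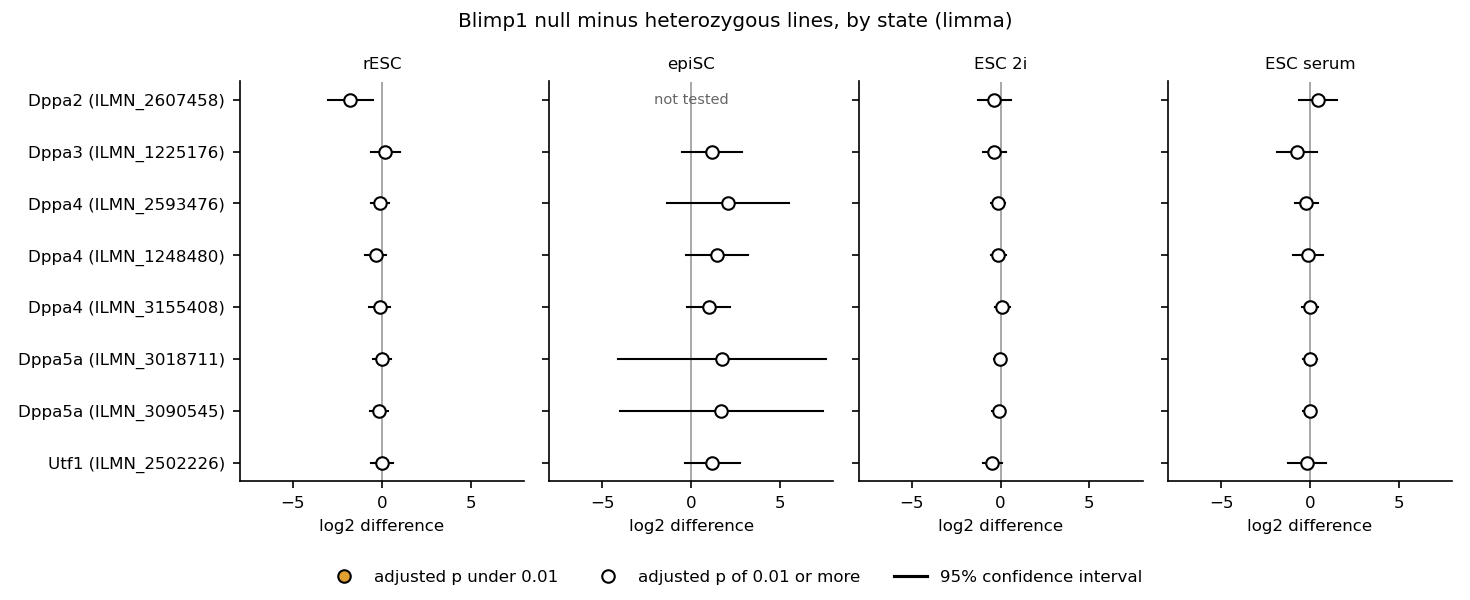
Null minus heterozygous log2 difference of each of the 8 probes (horizontal axis, log2 units) with its 95% interval, by state. Dppa2 was not tested in epiSCs and is marked so there. No symbol is filled, since none reached an adjusted p under 0.01, and the epiSC intervals of Dppa4 (-1.39 to 5.51) and Dppa5a (-4.10 to 7.58) are the widest.

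Genes beside the members were read for their own values. Ooep, which encodes a protein of the oocyte's subcortical maternal complex, lies 8703 bases from Dppa5a and was higher in rESCs than in epiSCs by 5.49 (adjusted p = 0.0015 in limma), with log2 levels of 11.91 in rESCs, 6.38 in epiSCs, 11.91 in 2i/LIF and 12.51 in serum. Kndc1, which encodes a KIND-domain protein, lies 2315 bases from Utf1. Like Utf1 it was higher in rESCs than in epiSCs (2.02, adjusted p = 0.00419), lower in 2i/LIF than in serum (-2.42, adjusted p = 8.79e-05) and differed by 0.21 between epiSCs and 2i/LIF (adjusted p = 0.673). Its rESC call was kept in 12 of 20 alternatives. Gdf3, a ligand of the TGF-beta family 16336 bases from Dppa3, rose in rESCs against epiSCs by 1.79 (adjusted p = 0.000316) and in 2i/LIF against serum by 1.25 (adjusted p = 1.9e-05). Nanog, a core pluripotency factor 77217 bases from Dppa3, differed by 0.40 between rESCs and epiSCs (adjusted p = 0.379). Tubgcp2, a tubulin-complex gene 50842 bases from Utf1, differed by -0.07 (adjusted p = 0.707). Mean log2 levels in rESCs and epiSCs were 6.49 and 4.57 (undetected in epiSCs) for Cgas, near Dppa5a. They were 6.58 and 6.72 for Apobec1, 11.93 and 12.08 for Slc2a3 and 5.36 and 5.72 for Foxj2, near Dppa3. For Nectin3, 1785199 bases from Dppa4, they were 8.67 and 8.95. Adgra1 and Adam8, near Utf1, were undetected in rESCs. Genes near a member thus did not all move with it.

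Lists of related genes place the members. In rESCs against epiSCs, 13 of 14 tested naive ESC genes were called higher and 0 lower (median 3.13), the core pluripotency list had 3 of 9 higher and 0 lower (median 0.64), and the epiblast list had 0 of 8 higher and 5 lower (median -2.16), where 12.5% of all probes were called lower. Of 5 DNA methylation genes tested, Dnmt3l, the inactive partner of the de novo methyltransferases, rose by 5.28 (adjusted p = 0.000774) and Tet1, which oxidizes methylated cytosine, by 2.38 (adjusted p = 0.000164), and Dnmt3b differed by -0.18 (adjusted p = 0.498). In 2i/LIF against serum, 2 of the 5 were called higher and 2 lower, where 15.7% of all probes were called higher and 15.4% lower. The lower ones, as were Utf1 and Dppa4, were Dnmt3l (by 1.35, adjusted p = 0.0011) and Tet1 (by 1.25, adjusted p = 1.97e-05). Of the 2-cell-like genes, which in mouse ESCs depend on Dppa2 and Dppa4, 1 of 2 tested rose in rESCs against epiSCs: Zscan4c by 3.95 (adjusted p = 0.000274). Zscan4c fell by 3.44 in 2i/LIF (adjusted p = 6.76e-05), in which Dppa2 was the member that rose. In rESCs against serum ESCs 0 genes of these 5 lists were called, where 0.193% of all probes tested were. Of 16 fibroblast markers tested, 3 were called higher in rESCs than in epiSCs and 0 lower, with summed signals of 7566 to 14525 in rESCs and 4912 to 6146 in epiSCs.

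The genes whose pattern was most like that of each member were taken by Pearson's r over the 22 pluripotent arrays, as a description across 9161 genes. The arrays share lines and fall into 4 states, so r mostly records differences between states. Dppa4 was most like Gtsf1l (r = 0.98), Rps4l (0.97) and Dnmt3l (0.97), and Dppa5a most like Ooep (0.97), Dppa4 (0.96) and Esrrb (0.96). Dppa3 was closest to Rnf17 (0.95) and Tdrd12 (0.94), which encode Tudor-domain proteins of the germline, and to Apoc1 (0.94). Utf1 was closest to Rad9b, Gldc and Ydjc (0.93 each), and Dppa2 to Mtmr12 (0.92), Ddx20 (0.91) and Kbtbd8 (0.89). Among the members themselves r was 0.96 between Dppa4 and Dppa5a, 0.89 between Dppa3 and Dppa5a, 0.72 between Dppa4 and Utf1, 0.54 between Dppa2 and its chromosomal neighbour Dppa4, and 0.13 between Dppa2 and Utf1. Probes of 1 gene gave r of 0.975 to 0.999.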

How the data were processed

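Expression was measured in 23 samples, each on 1 Illumina Mouse WG-6 array. The deposited signal intensities are the authors' mean bead values on a linear scale, with neither background subtraction nor normalization between arrays, and a detection p-value, in steps of 1 in 936, was deposited with each. The authors also deposited a table on a log2 scale, for which lumi stabilized the variance and quantile-normalized the arrays. It served as an alternative, and its scale was checked against the signals. A further 2 sample columns of the deposited table were not used. The scanner software was not given in the sources used here.

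Intensities were background-corrected and quantile-normalized with neqc of limma 3.58.1 (R 4.3.3, statmod 1.5.0, offset 16), over the arrays of each comparison for tests and over all 23 arrays for levels, so differences of levels depart slightly from fitted differences. A probe entered a test when the arrays that detected it (p under 0.01) were no fewer than the arrays of the smaller group. Calls were made under an adjusted p of 0.01 (Benjamini-Hochberg, all probes tested). Each line gave 1 array per state and nothing else was replicated, so the number of arrays limits the precision and p-values measure the spread between lines. Where a probe was undetected on all arrays of a group, the fold is a bound: the bright group's mean against a floor averaged over the dim arrays, which on each is the dimmest signal that counts as detected or, if higher, the probe's own. Cell line was a random block for null against heterozygous over all states. The same lines were used in 2i/LIF and serum, and deviations of same-line arrays correlated at 0.12 to 0.444 over 6 pairs. For rESCs and epiSCs they ran from -0.137 to 0.539 over 4 pairs.

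Gene symbols came from GEO's annotation of the platform (17604 with 1 symbol, 8 with several, 2870 with none, 24799 outside the value table), and 17584 were found by Entrez number. A gene is represented by its brightest probe. Named genes are the members, for each the 3 genes most like it, the measured genes among its nearest neighbours, and up to 3 genes per list. Genes of a list were those with the smallest p. The members and the lists (core pluripotency, naive ESC, epiblast, PGC, 2-cell-like, DNA methylation, Polycomb PRC2, fibroblast, primitive endoderm) were chosen with earlier results of these data known. Alternatives were the offset, no background correction, no filter, an intensity trend, the authors' table, 1 fit over 22 arrays, blocks, a genotype covariate and leaving out lines. The fitting was tested on simulated data.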

Additional observations from a re-analysis of the deposited data

Results flagged for a closer look

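Of 32 groups of lines checked for a value far from the rest, 4 were picked out, 2 of them in epiSCs. Chance alone picks about 1 group in 20. Dppa2 in ESCs in serum was highest in B12, at a log2 level of 6.70 against 5.55 in the next line (PAN1). Dppa3 in ESCs in serum was lowest in the same line, B12, at 6.79 against 8.56 in the next line (PAN1). The remaining pair is 1 gene, Dppa4, in epiSCs: BL6 was highest at 7.61 against 5.12 in BL7 for probe ILMN_1248480, and at 6.74 against 4.94 in BL7 for probe ILMN_3155408. No difference between null and heterozygous lines in the change between states was called for any member probe tested, nor for any other probe on the array.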

How the results depend on the processing

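No alternative reversed a call. For rESCs against epiSCs, 4 member probes (in place of 7) were called with no filter on dim probes (8 tested), with cell line as a replicate block over the 4 lines with both states, and on those arrays with no block, and 5 to 7 on leaving out 1 array. With no filter, where more probes are tested, 4 of 8 were called for epiSCs against serum (6 to 7 on leaving out 1 array) and 2 in place of 4 for 2i/LIF against serum (2 to 3 on leaving out 1 array). One fit over all 22 arrays, which shares 1 spread over the 4 states, epiSCs included, called 1 for 2i/LIF against serum and 1 in place of 4 for rESCs against 2i/LIF. Over all probes, the main fit and the alternatives apart from leaving out 1 array called 3830 to 4611 for 2i/LIF against serum. They called 1634 to 3202 for rESCs against 2i/LIF, 2532 to 4058 for rESCs against epiSCs and 3415 to 5904 for epiSCs against serum. The shares in the main fits were 31.1%, 18.7%, 23.2% and 37.1% of the probes tested. Leaving out 1 array gave 4 to 5 for rESCs against 2i/LIF, 7 for epiSCs against 2i/LIF, and 0 for rESCs against serum, for null against heterozygous lines and for both interaction terms, which also stayed at 0 in the alternatives run. The number block of the labels gave 0 for rESCs against serum and for null against heterozygous lines, 7 for epiSCs against serum, 7 for epiSCs against 2i/LIF and 4 for rESCs against 2i/LIF. Between genotypes the numbers are only shared, since deviations of same-numbered lines correlated at -0.461 in rESCs, 0.114 in epiSCs, between -0.239 and -0.058 in 2i/LIF, and between -0.254 and -0.163 in serum. With cell line as a replicate block, 2i/LIF against serum kept 3 calls.

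Dppa4 (3 probes) and Utf1 kept their call between rESCs and epiSCs in 20 of 20 alternatives, Dppa3 lost it in 3 and the Dppa5a probes in 12 and 11. Dppa2, where it could be tested, differed between rESCs and epiSCs by 1.57 with no filter (adjusted p = 0.0601 in limma) and 1.52 over 22 arrays (adjusted p = 0.00611). Over all probes, 26 were called for rESCs against serum, 3 to 494 on leaving out 1 array and 0 to 661 in the other alternatives. Null against heterozygous epiSCs gave 58, 0 on leaving out 1 array and 0 to 188 otherwise. EpiSCs against serum gave 5139 and as few as 3415, and rESCs against 2i/LIF 2528 and as few as 1634. The causes were not tested. Levels near background, as for Dppa2, and at the top of the scale, as for Dppa5a, limit what can be resolved.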

Other observations

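The remaining lists were read in the same fits. Of 8 PGC genes tested in rESCs against epiSCs, 4 were called higher and 1 lower, where 10.6% of all probes tested were called higher and 12.5% lower. Ifitm1, a surface protein of early germ cells, rose by 0.96 (adjusted p = 0.000389 in limma), Ddx4, the germline RNA helicase also called Vasa, by 0.72 (adjusted p = 0.000405), and Tdrkh, a Tudor-domain protein of the germline, fell by 2.45 (adjusted p = 1.7e-05). Tdrkh thus ran opposite to Dppa3, Dppa4, Dppa5a and Utf1 in that comparison, while in 2i/LIF against serum it fell by 2.12 (adjusted p = 1.44e-07), as Utf1 did. Of 8 Polycomb PRC2 genes, 1 was called higher in rESCs than in epiSCs, Mtf2, by 1.09 (adjusted p = 0.000552). Of 9 primitive endoderm genes tested, 1 was called higher and 3 lower in rESCs than in epiSCs, with Foxq1 differing by -3.05 on the log2 scale (adjusted p = 1.38e-06).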
